A study of Homo sapiens with 24 samples.

Results

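The genes described here make fatty acids and activate them for use. They are FASN, fatty acid synthase, with 9 genes that supply its substrates, activate its products or control its transcription: ACLY, ACSS2, ACACA, ACACB, ACSL1, ACSL4, ACSL5, AACS and SREBF1. They were chosen by gene symbol, and a probe was kept where its detection p-value was under 0.01 on at least 3 of the 24 arrays. Of the 25 probes with these symbols 13 were kept, for 8 of the 10 genes, out of 17633 kept probes and 10345 named genes in all. For ACSL4 none of 4 probes was kept, and for ACSL5 none of 5.

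The cells were LNCaP, an androgen-sensitive line from a lymph node metastasis of a human prostate cancer, maintained in RPMI medium with 10% FBS. O-GlcNAc transferase (OGT) attaches a single sugar, N-acetylglucosamine, to nuclear and cytosolic proteins, and the series concerns this modification and the stability of the MYC protein. Cells were plated onto ST045849, an OGT inhibitor, or onto its vehicle, and others onto siRNA targeting OGT, called siOGT, or onto scrambled siRNA, for 12 or 24 hours. That makes 8 groups of 3 arrays: vehicle, ST045849, scrambled and siOGT, each at both times. All come from this 1 line, and no source used here gives the dose of the compound. The submitters call the arrays of a group biological replicates, but nothing says how the cultures were kept apart, so the p-values measure the spread between these samples.

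Fatty acid synthesis starts from acetyl-CoA in the cytosol. Acetyl-CoA carboxylase turns it into malonyl-CoA, and fatty acid synthase joins malonyl units into palmitate, using NADPH. SREBP-1, the product of SREBF1, is the transcription factor best known for switching on these enzymes, and prostate cancer cells are known for high fatty acid synthase, which androgens raise.

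Promoter sequences are shown for 3 of the genes whose level changed, to give the DNA before their start sites. The windows are the 250 bases upstream of an annotated start in RefSeq GRCh38.p14, written 5′ to 3′ on the gene's strand. Capitals mark the GC box, GGGCGG on either strand, the core to which SP1-family factors bind. For SREBF1 the window is chr17:17836987-17837236 (minus strand), for AACS chr12:125065185-125065434 (plus strand), and for ACACA, the first of 3 annotated starts, chr17:37406837-37407086 (minus strand).
SREBF1: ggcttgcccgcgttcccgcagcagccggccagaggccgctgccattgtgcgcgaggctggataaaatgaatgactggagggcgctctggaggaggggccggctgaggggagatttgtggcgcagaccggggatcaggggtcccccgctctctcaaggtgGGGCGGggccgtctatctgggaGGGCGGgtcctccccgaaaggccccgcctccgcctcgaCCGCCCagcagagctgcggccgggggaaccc
AACS: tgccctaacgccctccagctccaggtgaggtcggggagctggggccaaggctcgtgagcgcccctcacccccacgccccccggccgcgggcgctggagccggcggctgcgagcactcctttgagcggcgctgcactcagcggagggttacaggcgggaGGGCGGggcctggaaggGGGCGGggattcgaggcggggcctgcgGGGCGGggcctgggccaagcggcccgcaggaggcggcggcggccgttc
ACACA: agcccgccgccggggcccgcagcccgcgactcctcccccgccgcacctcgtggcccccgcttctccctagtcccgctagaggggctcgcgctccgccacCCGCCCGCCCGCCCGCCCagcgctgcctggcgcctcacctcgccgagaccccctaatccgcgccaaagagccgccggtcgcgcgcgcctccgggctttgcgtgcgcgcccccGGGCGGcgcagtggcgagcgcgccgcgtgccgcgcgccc
SREBF1 and AACS hold 3 copies each, and the ACACA window holds 5, with overlapping copies each counted. The 9 genes other than FASN had 19 windows, and a GC box lay in 12 of them, against 42.6% of all 35116 windows. A CCAAT box (CCAAT, either strand) lay in 7 of the 19 windows, against 32% of all windows. A sterol element (TCACNCCAC, either strand), a form of the site for SREBP factors, lay in 1 window, the third of ACSL1, against 0.883% of all. Neither the E-box CACGTG nor the amino acid response element TGATGNAA lay in any of the 19 windows, against 6.34% and 3.14% of all. The 2 ACLY windows overlap, so boxes in their shared bases count in both, and genes with more annotated starts gave more windows. Overlaps between different motifs were not removed, and a match describes letters in these windows only.

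The arrays were alike in quality. The median raw intensity lay between 101.5 and 126.5, between 29.57% and 34.33% of probes were detected, and the correlation across genes between arrays of a group was 0.9873 to 0.9929. With 3 arrays per group, the number of arrays sets the precision. On the first principal component the ST045849 arrays lay at 14.08 to 29.16 and all others at -12.85 to -1.273. The vehicle arrays parted on it, and time and replicate number carried that split to the other treatments. This gave 2 sets of 12, which cross the labelled times. In the first set ST045849 arrays lay at 25.87 to 29.16 and the others at -12.85 to -9.341, with the second set between. The first set holds replicate 3 of each 12 hour group and replicates 1 and 3 of each 24 hour group. Treated and control groups of 1 time hold the sets in equal numbers, and groups of different times do not. The 7 luminal prostate markers tested were each detected on all arrays. Of 10 basal, stromal, blood and vessel markers VIM and ACTA2 were detected on all arrays, 7 on none, and TP63 had no probe with its symbol. The siRNA lowered OGT to 0.307 of the scrambled level at 12 hours (log2 change -1.70 ± 0.23, SE; limma adjusted p = 0.004) and to 0.281 at 24 hours (-1.83 ± 0.23, adjusted p = 0.000679).

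With the OGT inhibitor, FASN fell at both times and ACACA fell with it. SREBF1 fell and AACS rose at 24 hours. ACLY, ACSS2, ACSL1 and ACACB did not pass the test at either time. With siOGT, which lowered OGT itself, none of the 8 genes passed. Levels and changes are on a log2 scale of normalized intensity, tests are limma's moderated statistics, and a gene was called when its p, adjusted by Benjamini-Hochberg over all 10345 genes, was under 0.05. At 12 hours 2 of the 8 genes were called, both lower, where 11% of all genes were called, 5.28% lower and 5.73% higher. At 24 hours 3 were lower and 1 was higher, where 24.3% of all genes were called, 10.7% lower and 13.6% higher. The median change of the 8 genes was -0.12 at 12 hours, beside 0 over all genes, and 0.01 at 24 hours, beside 0.03. With siOGT 0 of 8 were called at both times, beside 0.00967% of all genes at 12 hours and 0.126% at 24 hours. At an unadjusted p under 0.05 that count was 1 at 12 hours, ACSL1, and 0 at 24 hours.

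**Figure D1:**
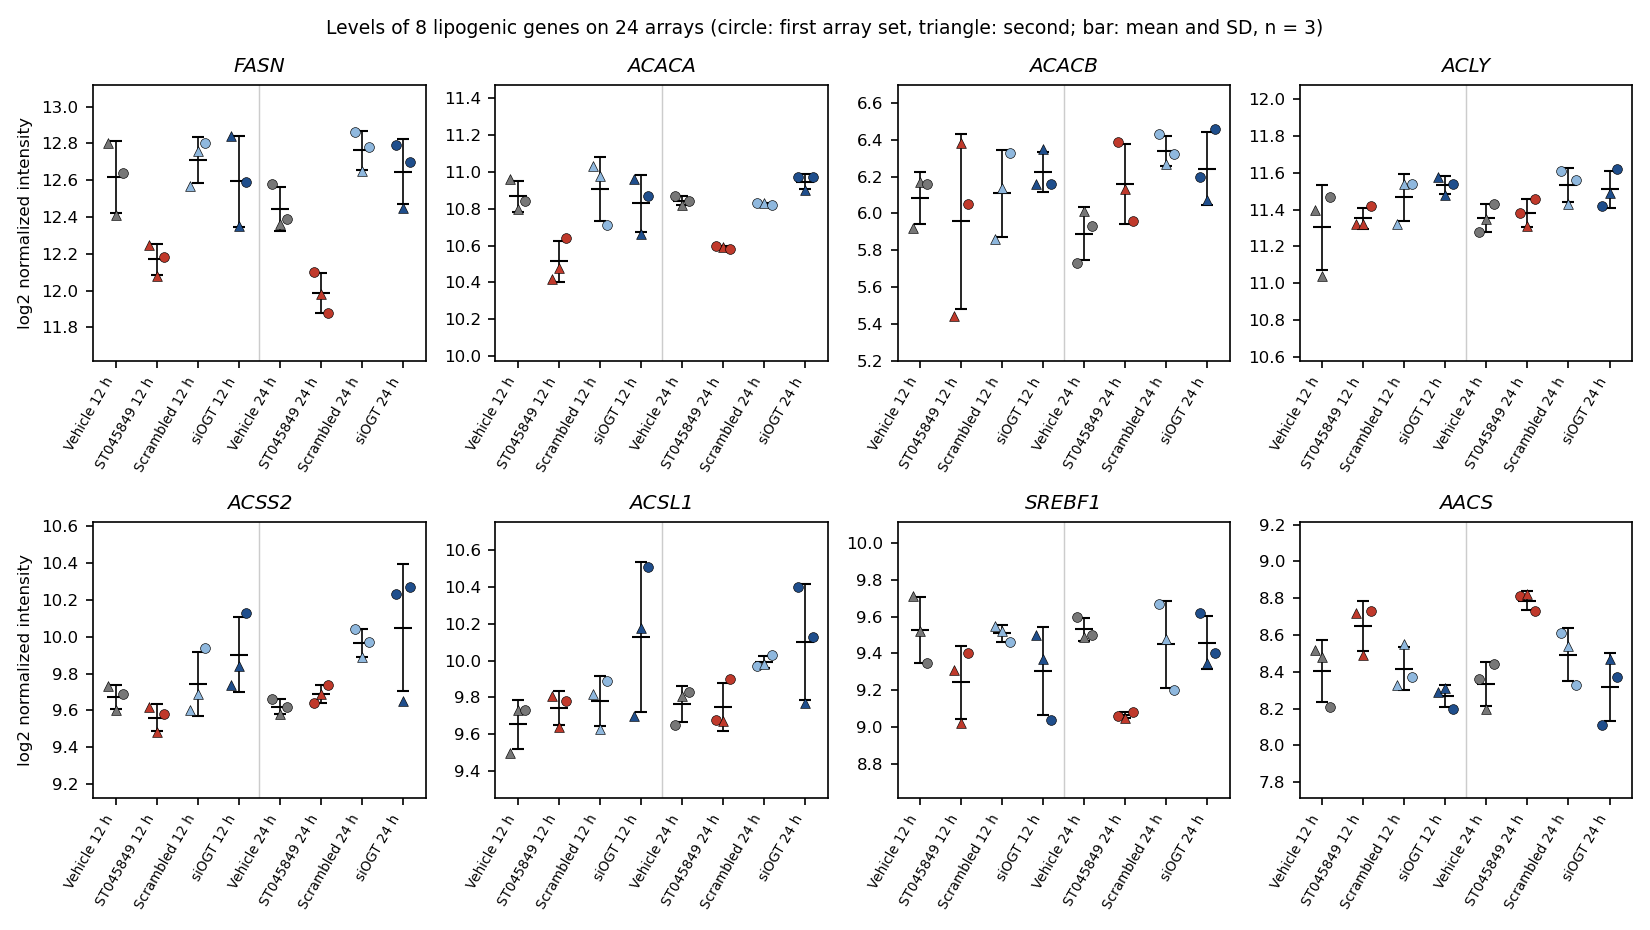
Levels of the 8 measured genes, as log2 normalized intensity, on each of the 24 arrays; each panel is 1 gene, points are arrays (circles for the first array set, triangles for the second) and bars are the mean and SD of 3 arrays. All 6 ST045849 arrays of FASN lie at 12.25 or below and the other 18 at 12.35 or above.

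FASN, the multifunctional enzyme that builds palmitate, lies at chr17:82078338-82098236 (GRCh38.p14). Its level at 12 hours was 12.80, 12.41 and 12.64 on the 3 vehicle arrays and 12.25, 12.08 and 12.18 on the 3 ST045849 arrays. The 24 hour values were 12.58, 12.36 and 12.39 with vehicle and 12.10, 11.98 and 11.88 with ST045849. At each time all 3 treated arrays lay below all 3 controls, as they did for 14.8% of all genes at 12 hours and 17.5% at 24 hours. FASN fell by 0.45 ± 0.13 at 12 hours (SE, n = 3 per group; limma adjusted p = 0.0255), to 0.733 of vehicle with a 95% interval of 0.611 to 0.878. At 24 hours it fell by 0.46 ± 0.13 (limma adjusted p = 0.0113), to 0.728 of vehicle with an interval of 0.607 to 0.873. In bulk RNA, less transcript in each cell and fewer cells with the transcript cannot be told apart. The 2 effects differed by -0.01 ± 0.18, with a 95% interval of -0.38 to 0.36 (adjusted p = 0.993). None of the 8 genes passed that test of time, 0 also at an unadjusted p under 0.05, as 0% of all genes did in limma.

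The siRNA groups held FASN at 12.57, 12.76 and 12.80 (scrambled) and 12.84, 12.35 and 12.59 (siOGT) at 12 hours. At 24 hours the values were 12.86, 12.65 and 12.78 with scrambled and 12.79, 12.45 and 12.70 with siOGT. The groups overlapped at both times. The change was -0.12 ± 0.13 at 12 hours (limma adjusted p = 1) and -0.12 ± 0.13 at 24 hours (adjusted p = 0.749), with 95% intervals of -0.38 to 0.14 and -0.38 to 0.15. The effect of ST045849 minus that of siOGT was -0.33 ± 0.18 at 12 hours (adjusted p = 0.379), then -0.34 ± 0.18 at 24 hours (adjusted p = 0.196), so FASN was not shown to respond differently to the 2 treatments. With median scaling in place of quantile normalization that difference was -0.60 at 24 hours and passed (adjusted p = 0.0444), with the median of all genes at -0.247.

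In order of level, FASN stood at 12.76 ± 0.11 with scrambled at 24 hours (SD, n = 3), 12.71 ± 0.12 with scrambled at 12 hours, 12.65 ± 0.17 with siOGT at 24 hours, 12.62 ± 0.20 with vehicle at 12 hours and 12.59 ± 0.24 with siOGT at 12 hours. Below these came vehicle at 24 hours (12.44 ± 0.12), ST045849 at 12 hours (12.17 ± 0.09) and ST045849 at 24 hours (11.98 ± 0.11). Only between vehicle at 24 hours and ST045849 at 12 hours did neighbours in this order not overlap. The highest of the 6 ST045849 arrays was 12.25 and the lowest of the 18 others 12.35, a separation that 3.62% of all genes showed in this direction.

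The FASN call was lost when certain arrays were left out, while the change stayed between -0.55 and -0.36 at 12 hours and between -0.51 and -0.39 at 24 hours. Leaving out 1 array also lowered the calls over all genes, from 1139 to between 486 and 1052 at 12 hours and from 2516 to between 1705 and 2414 at 24 hours. At 12 hours the FASN call was lost without vehicle replicate 1 (-0.36, limma adjusted p = 0.107) or 3 (-0.44, 0.0876), and without ST045849 replicate 2 (-0.40, 0.088) or 3 (-0.45, 0.0775). Limma run on the 6 arrays compared gave the same change of -0.45 with an adjusted p of 0.0823. At 24 hours it was lost without vehicle replicate 1 (-0.39, adjusted p = 0.0631) and without ST045849 replicate 3 (-0.41, 0.0541). Within the array sets, over both times, ST045849 minus vehicle was -0.49 in the first and -0.42 in the second. In each all 3 treated arrays lay below the controls, as for 20.7% and 12.9% of all genes. Every ST045849 array lay below every other array for FASN, so this separation within the sets was fixed and adds no support.

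ACACA, acetyl-CoA carboxylase alpha, the cytosolic enzyme that makes the malonyl-CoA used by FASN, lies at chr17:37084992-37406836. At 12 hours its level was 10.96, 10.80 and 10.84 with vehicle and 10.42, 10.48 and 10.64 with ST045849. The 24 hour levels were 10.87, 10.82 and 10.84 with vehicle and 10.60, 10.59 and 10.58 with ST045849. The groups did not overlap at either time. ACACA fell by 0.35 ± 0.09 at 12 hours, to 0.782 of vehicle (95% interval 0.685 to 0.892; limma adjusted p = 0.0163), and by 0.26 ± 0.09 at 24 hours, to 0.837 of vehicle (0.734 to 0.955; adjusted p = 0.046). The highest of the 6 ST045849 arrays was 10.64 and the lowest of the 18 others 10.66, so ACACA was the only other of the 8 genes with this separation.

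The 24 hour call of ACACA was lost when any 1 of the 6 arrays was left out, with changes of -0.27 to -0.24 and adjusted p from 0.0719 to 0.12. It was also lost in 5 of 13 settings of the processing. The 12 hour call was lost without vehicle replicate 1 (-0.31, adjusted p = 0.0647), ST045849 replicate 1 (-0.31, 0.0589) or ST045849 replicate 2 (-0.34, 0.0521). Within the array sets the differences were -0.25 and -0.36, with no overlap in either. That too was fixed, as every ST045849 array lay below every other array for ACACA.

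With siOGT at 24 hours ACACA was at 10.97, 10.90 and 10.97, above the scrambled arrays at 10.83, 10.83 and 10.82. Such a separation upward was seen for 7.35% of all genes, and the change of 0.12 ± 0.09 did not pass (limma adjusted p = 0.63). At 12 hours the groups overlapped and the change was -0.08 ± 0.09 (adjusted p = 1). The 24 hour effect of ST045849 minus that of siOGT was -0.37 ± 0.13 for ACACA (adjusted p = 0.053), and it passed in 7 of 13 settings.

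ACACB, the carboxylase at the mitochondrial outer membrane, whose malonyl-CoA restrains entry of fatty acids into mitochondria, lies at chr12:109111189-109268226. It lay close to background, detected on 23 of the 24 arrays, and its log2 level ran from 5.44 to 6.46. With ST045849 it differed by -0.12 ± 0.18 at 12 hours (limma adjusted p = 0.716), then by 0.27 ± 0.18 at 24 hours (adjusted p = 0.292). The 95% interval at 24 hours ran from -0.10 to 0.64. The offset added before logs draws the changes of a probe this dim toward 0.

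ACLY, ATP citrate lyase, which splits citrate exported from mitochondria into acetyl-CoA and oxaloacetate, lies at chr17:41866917-41930545. At 24 hours its level was 11.28, 11.35 and 11.43 with vehicle and 11.38, 11.31 and 11.46 with ST045849. These overlapped, and the change was 0.03 ± 0.10 (limma adjusted p = 0.861), with a 95% interval of -0.18 to 0.24. At 12 hours it was 0.05 ± 0.10 (adjusted p = 0.805).

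ACSS2, which makes acetyl-CoA from acetate, lies at chr20:34874989-34927959. It differed by -0.11 ± 0.13 at 12 hours (limma adjusted p = 0.65) and 0.07 ± 0.13 at 24 hours (adjusted p = 0.738) with ST045849. ACSL1, a long-chain acyl-CoA synthetase that couples fatty acids to coenzyme A, lies at chr4:184755595-184826594 and differed by 0.09 ± 0.16 (adjusted p = 0.764) and -0.02 ± 0.16 (adjusted p = 0.954). All these groups overlapped.

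The widest scatter of ACSS2 and ACSL1 lay in the siRNA groups. ACSL1 was at 9.70, 10.18 and 10.51 with siOGT at 12 hours and at 9.82, 9.63 and 9.89 with scrambled, a change of 0.35 ± 0.16 that did not pass (limma adjusted p = 1). At 24 hours it was at 10.40, 9.77 and 10.13 with siOGT and at 9.97, 9.98 and 10.03 with scrambled (0.10 ± 0.16, adjusted p = 0.838). ACSS2 was at 10.23, 9.65 and 10.27 with siOGT at 24 hours and at 10.04, 9.89 and 9.97 with scrambled (0.08 ± 0.13, adjusted p = 0.841). The 2 genes were high and low on the same arrays: their Pearson correlation was 0.80 over the 24 arrays and 0.70 after group means were removed. Both values come from the same arrays and share their technical variation, so this is a description.

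The siOGT differences were also read within each array set. In the first set, over both times, siOGT minus scrambled was 0.38 for ACSL1, 0.22 for ACSS2 and 0.15 for ACACA, each with all 3 siOGT arrays above all 3 scrambled arrays, as for 8.77% of all genes. In the second set the differences were 0.07, 0.02 and -0.11, with overlap in each. OGT itself was lower on the siOGT arrays of the first set, at 6.71, 6.76 and 6.60, than on those of the second, at 7.32, 7.55 and 7.82. Depth of knockdown and array set thus go together on the siOGT arrays. Which of them goes with the ACSL1 and ACSS2 values cannot be told apart here and was not tested.

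**Figure D2:**
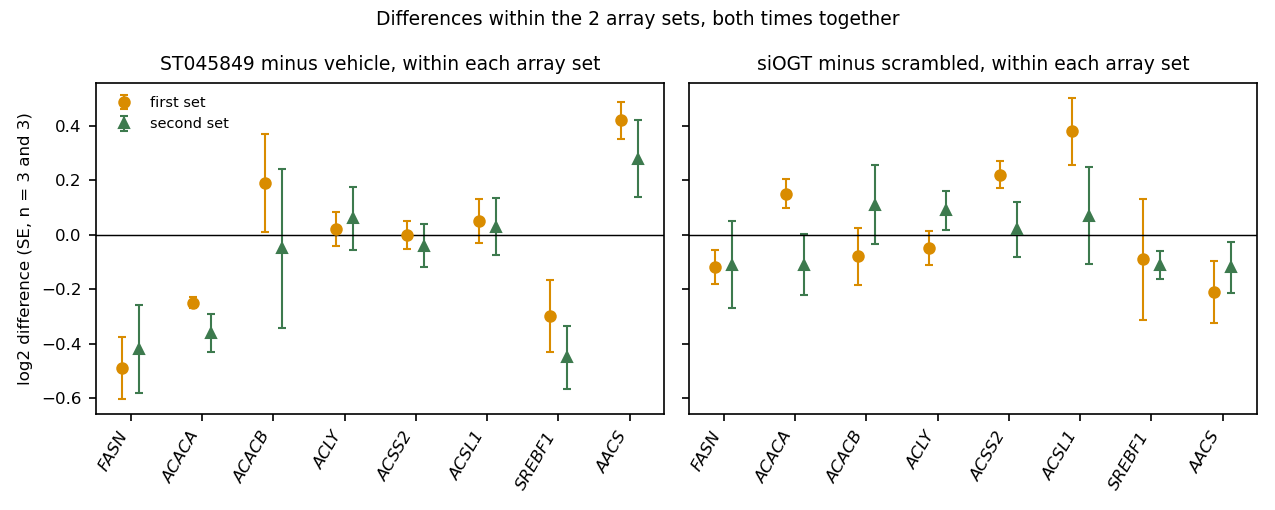
Difference of each gene's mean log2 level between treated and control arrays within the first (circles) and second (triangles) array set, both times together, with SE from 3 and 3 arrays; ST045849 minus vehicle on the left and siOGT minus scrambled on the right. FASN is at -0.49 and -0.42 with ST045849, and ACSL1 is at 0.38 and 0.07 with siOGT.

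ACSL4, which favours arachidonic acid, and ACSL5, an acyl-CoA synthetase of mitochondria and endoplasmic reticulum, had no kept probe. ACSL4 lies at chrX:109641335-109733257 and ACSL5 at chr10:112374116-112428376. Of the 4 ACSL4 probes 1 was detected on 2 arrays, at a raw intensity of 143 on replicate 1 of ST045849 at 12 hours and of 149.3 on replicate 3 of siOGT at 12 hours. No ACSL5 probe was detected on any array, with raw intensities of 86.02 to 137.8. Neither gene was tested, and a level below the arrays' background does not show that the transcript was absent.

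SREBF1 encodes SREBP-1, which is made as a membrane precursor and released by cleavage when sterols are low, and lies at chr17:17811334-17836986. At 12 hours its level was 9.71, 9.52 and 9.35 with vehicle and 9.31, 9.02 and 9.40 with ST045849, which overlapped (-0.28 ± 0.13, limma adjusted p = 0.182). At 24 hours it was 9.60, 9.49 and 9.50 with vehicle and 9.06, 9.05 and 9.08 with ST045849, with no overlap. SREBF1 fell by 0.47 ± 0.13 at 24 hours, to 0.723 of vehicle (95% interval 0.598 to 0.874; adjusted p = 0.0129). The call was lost without vehicle replicate 1 (-0.43, adjusted p = 0.0534). The effects at the 2 times differed by -0.19 ± 0.19 (adjusted p = 0.878), which does not show a larger change at 24 hours.

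A second SREBF1 probe, annotated to another RefSeq transcript of the gene, gave a change at both times. Its level was 7.33, 7.33 and 7.28 with vehicle and 6.44, 6.60 and 6.59 with ST045849 at 12 hours. The 24 hour levels were 7.25, 7.24 and 7.02 with vehicle and 6.54, 6.86 and 6.47 with ST045849. Neither time overlapped. In a fit of all 17633 kept probes it fell by 0.77 ± 0.18 at 12 hours, to 0.586 of vehicle (limma adjusted p = 0.0137), and by 0.55 ± 0.18 at 24 hours, to 0.684 of vehicle (adjusted p = 0.0406). Both SREBF1 probes were thus below vehicle at 24 hours, and at 12 hours only the second was called. The difference between the 2 probes was not tested.

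With siOGT both SREBF1 probes overlapped scrambled. The first differed by -0.21 ± 0.13 at 12 hours (limma adjusted p = 1) and 0.01 ± 0.13 at 24 hours (adjusted p = 0.99), the second by -0.06 ± 0.18 (adjusted p = 1) and 0.05 ± 0.18 (adjusted p = 0.952). For the first probe, the 24 hour effect of ST045849 minus that of siOGT was -0.48 ± 0.19 (adjusted p = 0.0848). It passed in 3 of 13 settings of the processing, with median scaling at -0.82 (adjusted p = 0.00618), and without scrambled replicate 1 (-0.59, adjusted p = 0.0453).

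AACS, acetoacetyl-CoA synthetase, activates acetoacetate in the cytosol for sterol and fatty acid synthesis and lies at chr12:125065435-125143316. It went the other way. At 12 hours its level was 8.52, 8.48 and 8.21 with vehicle and 8.72, 8.49 and 8.73 with ST045849, which overlapped (0.24 ± 0.11, limma adjusted p = 0.171). At 24 hours it was 8.36, 8.20 and 8.44 with vehicle and 8.81, 8.82 and 8.73 with ST045849, with no overlap, as for 22.7% of all genes in this direction. AACS rose by 0.46 ± 0.11, or 1.37-fold (95% interval 1.17 to 1.61; adjusted p = 0.00505), and the call held when any 1 array was left out (0.39 to 0.51). It was lost with median scaling (0.24, adjusted p = 0.239), where the median of all genes moved to -0.139. Within the array sets the differences were 0.42 in the first, with no overlap (26.2% of all genes), and 0.28 in the second, with overlap.

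With siOGT, AACS was at 8.29, 8.31 and 8.20 at 12 hours and at 8.11, 8.47 and 8.37 at 24 hours. Scrambled stood at 8.33, 8.55 and 8.37 and at 8.61, 8.54 and 8.33. At 12 hours all 3 siOGT arrays lay below scrambled, as for 4.76% of all genes, and at 24 hours the groups overlapped. The changes were -0.15 ± 0.11 (limma adjusted p = 1) and -0.18 ± 0.11 (adjusted p = 0.538). AACS was the one gene of the 8 for which the test of ST045849 effect minus siOGT effect passed, at 0.64 ± 0.16 at 24 hours (adjusted p = 0.0103), where 16.1% of all genes passed and 9.65% were higher. At 12 hours that difference was 0.39 ± 0.16 (adjusted p = 0.214), and 0 of the 8 genes passed in limma beside 2% of all genes, with 2 at an unadjusted p under 0.05, ACACA and AACS.

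**Figure D3:**
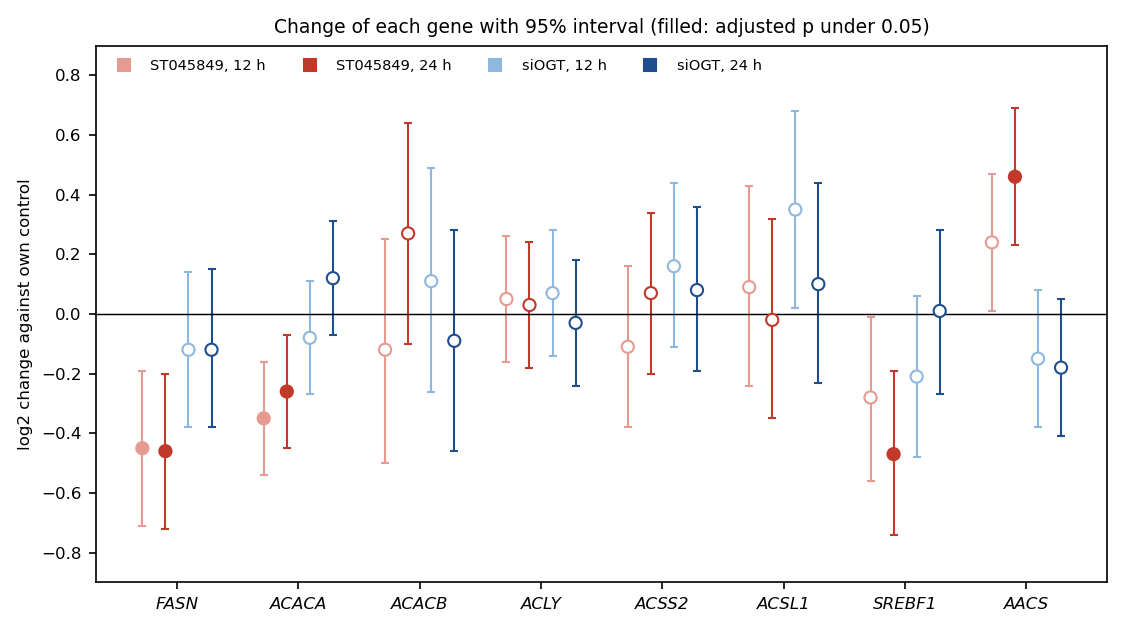
Log2 change of each gene against its own control with the 95% interval, for ST045849 (red) and siOGT (blue) at 12 hours (light) and 24 hours (dark); filled points have an adjusted p under 0.05. FASN, ACACA and SREBF1 lie below 0 and AACS above it with ST045849 at 24 hours, and no siOGT point is filled.

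Genes with several kept probes gave further readings of ACACA, ACLY and ACSS2. At the level of probes 3 of 13 fell at 12 hours, where 7.66% of all kept probes were called, and 4 of 13 fell and 1 rose at 24 hours, where 19.8% were called. With siOGT 0 of 13 were called at either time in limma, where 1 at 12 hours and 0 at 24 hours had an unadjusted p under 0.05. The second ACACA probe differed by -0.24 ± 0.10 at 12 hours (limma adjusted p = 0.135) and fell by 0.28 ± 0.10 at 24 hours (adjusted p = 0.0413), whereas the first, in the same fit, fell by 0.35 at 12 hours (adjusted p = 0.025) and differed by -0.26 at 24 hours (adjusted p = 0.0608). The 2 ACACA probes differed from vehicle in 1 direction at both times. A second ACLY probe, of another annotated transcript, had all 3 ST045849 arrays below vehicle at 12 hours, at 10.25, 10.16 and 10.17 against 10.40, 10.28 and 10.81. Its changes of -0.30 ± 0.16 (adjusted p = 0.276) and -0.20 ± 0.16 (adjusted p = 0.392) were opposite in sign to those of the first ACLY probe, and none passed. The other 2 ACSS2 probes differed by -0.13 and -0.38 at 12 hours and by 0.04 and 0.22 at 24 hours, none of them called.

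**Figure D4:**
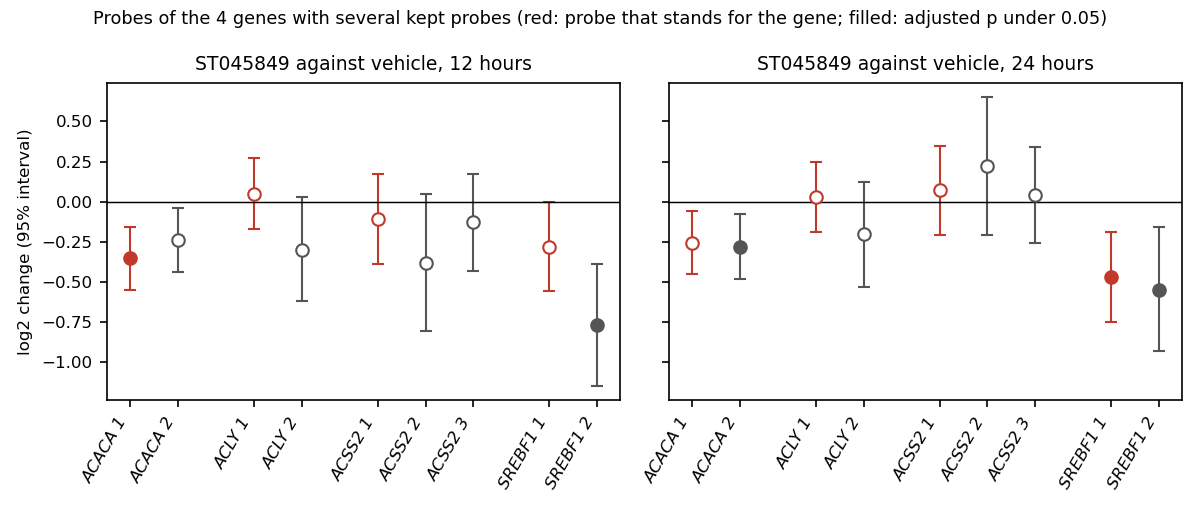
Log2 change with ST045849 of every kept probe of ACACA, ACLY, ACSS2 and SREBF1, with the 95% interval, at 12 hours (left) and 24 hours (right); red marks the probe that stands for the gene and filled points have an adjusted p under 0.05 in the fit of all probes. Both SREBF1 probes and the second ACACA probe are filled at 24 hours, and the second SREBF1 probe is the lowest at 12 hours, at -0.77.

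Between the 2 control groups 0 of the 8 genes were called in limma at 24 hours, with 3 at an unadjusted p under 0.05. At 24 hours scrambled minus vehicle was 0.32 ± 0.13 for FASN (limma adjusted p = 0.284), 0.45 ± 0.18 for ACACB (adjusted p = 0.291), 0.35 ± 0.13 for ACSS2 (adjusted p = 0.266) and 0.23 ± 0.16 for ACSL1 (adjusted p = 0.57). In each of these 4 genes all 3 scrambled arrays lay above all 3 vehicle arrays, as for 10.1% of all genes, and 0.087% of all genes were called. At 12 hours all 8 genes overlapped between these controls. Each treatment was therefore read against its own control.

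Across the 24 arrays the genes most like FASN, by Pearson correlation, were SAC3D1 (0.928), DNMT1 (0.924), ORC5 (0.906), TIMM23 (0.895) and DOLK (0.894). The arrays share the 8 groups, so these values describe the groups' pattern as much as the arrays. DNMT1, the maintenance DNA methyltransferase, fell by 0.48 ± 0.10 at 12 hours, then by 0.56 ± 0.10 at 24 hours with ST045849. ORC5, a subunit of the origin recognition complex, fell by 0.41 ± 0.11 and 0.45 ± 0.11. TIMM23 differed by -0.23 ± 0.09 at 12 hours, with overlap, and by -0.34 ± 0.09 at 24 hours. These genes were picked for likeness to FASN on the same arrays, where FASN was lowest with ST045849. Their falls with ST045849 follow largely from that choice and give no separate support. Among the lipogenic genes ACACA was most like FASN (0.77, rank 308 of 10344 genes), then SREBF1 (0.67), ACSS2 (0.54), ACLY (0.47), ACSL1 (0.23) and ACACB (0.20). AACS ran opposite to FASN (-0.60). With the group means removed the order changed. The correlations with FASN were then 0.46 for ACLY, 0.45 for ACSS2, 0.38 for ACACA and 0.38 for SREBF1. They were -0.01 for AACS, -0.09 for ACACB and -0.18 for ACSL1.

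Genes around the pathway were read in lists of related function, beside the share of all genes called. With ST045849 that share was 11% at 12 hours, 5.28% lower and 5.73% higher. At 24 hours it was 24.3%, 10.7% lower and 13.6% higher. Of 10 tested genes of fatty acid elongation and desaturation, the steps after FASN, 2 fell and 0 rose at 12 hours with ST045849, and 4 fell and 0 rose at 24 hours. ELOVL6, which elongates palmitate to stearate, fell by 0.54 ± 0.15 at 12 hours (limma adjusted p = 0.0275), then by 0.77 ± 0.15 at 24 hours (adjusted p = 0.00121). At 24 hours ELOVL7, another elongase, fell by 1.26 ± 0.24 (adjusted p = 0.001), ELOVL5 by 0.49 ± 0.15 (adjusted p = 0.017) and the desaturase FADS1 by 0.58 ± 0.18 (adjusted p = 0.0232). FADS2 was called at 12 hours, where it fell by 0.80 ± 0.24 (adjusted p = 0.037), and differed by -0.63 ± 0.24 at 24 hours (adjusted p = 0.0636). SCD, the desaturase that makes oleate, differed by -0.20 ± 0.11 (adjusted p = 0.235) and -0.16 ± 0.11 (adjusted p = 0.299). The median of this list was -0.20 at 12 hours and -0.34 at 24 hours, beside 0 and 0.03 over all genes.

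Among 8 tested genes that process SREBP or act beside it, 1 rose and 1 fell at 12 hours and 1 fell at 24 hours. Over all genes 11% and 24.3% were called at these times. INSIG1, a sterol-regulated protein that holds the SREBP precursor in the endoplasmic reticulum, fell by 0.69 ± 0.19 (limma adjusted p = 0.0221) and by 0.80 ± 0.19 (adjusted p = 0.00419). INSIG2, its relative, rose by 0.48 ± 0.12 at 12 hours (adjusted p = 0.0127) and differed by 0.33 ± 0.12 at 24 hours (adjusted p = 0.0505). SREBF2, which encodes the factor of sterol synthesis, differed by 0.25 ± 0.24 at each time (adjusted p = 0.571 and 0.486). The list's median was -0.04 and 0.08.

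Among 8 tested genes of citrate supply and NADPH, 1 rose at 12 hours, and 2 rose and 1 fell at 24 hours. The shares of all genes called were 11% and 24.3%. IDH1, a cytosolic source of NADPH, rose by 0.39 ± 0.13 (limma adjusted p = 0.0489) and 0.58 ± 0.13 (adjusted p = 0.00215). PGD, an NADPH-producing enzyme of the pentose phosphate pathway, rose by 0.65 ± 0.15 at 24 hours (adjusted p = 0.0033). SLC25A1, the mitochondrial citrate carrier, fell by 0.34 ± 0.10 at 24 hours (adjusted p = 0.0212). The median was 0.19 at 12 hours and 0.07 at 24 hours.

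Of 13 tested genes of fatty acid breakdown, 2 were called higher at 12 hours and 3 at 24 hours, with none called lower. Over all genes 5.73% and 13.6% were called higher. The list's median was 0.03 at both times, beside 0 and 0.03 over all genes. At 24 hours all ST045849 arrays lay above vehicle for 3 of the 13 and below it for 2, beside 22.7% and 17.5% of all genes. HADHA, a subunit of the mitochondrial trifunctional protein, rose by 0.37 ± 0.10 (limma adjusted p = 0.0207) and 0.53 ± 0.10 (adjusted p = 0.000704). HADHB, its partner, rose by 0.41 ± 0.12 at 12 hours (adjusted p = 0.0291) and differed by 0.30 ± 0.12 at 24 hours (adjusted p = 0.0705). The acyl-CoA dehydrogenases ACADVL and ACADS rose by 0.52 ± 0.11 (adjusted p = 0.00211) and 0.37 ± 0.12 (adjusted p = 0.0263) at 24 hours.

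For the next lists too, 11% of all genes were called with ST045849 at 12 hours and 24.3% at 24 hours. Of 9 tested genes of carboxylase control by the kinase AMPK and of malonyl-CoA turnover, 0 passed at 12 hours. PRKAB1, an AMPK subunit, rose by 0.47 ± 0.11 at 24 hours (limma adjusted p = 0.00443). Among 5 tested acyl-CoA synthetases outside the 10 genes and FASN or carboxylase partners, MID1IP1, a protein that promotes polymerisation of acetyl-CoA carboxylase, rose by 0.41 ± 0.09 at 12 hours (adjusted p = 0.00626), then 0.33 ± 0.09 at 24 hours (adjusted p = 0.0123). ACSS3, a mitochondrial relative of ACSS2, rose by 0.52 ± 0.18 at 24 hours (adjusted p = 0.0442). Of 8 glycerolipid genes 1 passed, AGPAT2, which acylates lysophosphatidic acid and rose by 0.61 ± 0.15 at 24 hours (adjusted p = 0.00738). Among 5 ketone body and acetoacetyl-CoA genes, neighbours of AACS, 1 fell at 12 hours and 2 at 24 hours. ACAT2, which makes cytosolic acetoacetyl-CoA, fell by 0.78 ± 0.22 at 24 hours (adjusted p = 0.0144) while AACS rose, and BDH1 fell by 0.37 ± 0.13 (adjusted p = 0.0436). HMGCS1, the next enzyme toward sterols, fell by 0.52 ± 0.16 at 12 hours (adjusted p = 0.0455) and differed by -0.07 ± 0.16 at 24 hours (adjusted p = 0.79). With siOGT 0 of the 66 tested genes of these 8 lists were called in limma at either time. Over all genes 0.00967% were called with siOGT at 12 hours and 0.126% at 24 hours. Of the 66 genes 2 at 12 hours and 5 at 24 hours had an unadjusted p under 0.05.

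Of the 7 luminal markers tested, 3 were called lower at each time with ST045849, and 1 higher at 12 hours. Over all genes 5.28% were called lower and 5.73% higher at 12 hours, and 10.7% and 13.6% at 24 hours. The changes of the 7 ran from -0.79 to 0.36 at 12 hours and from -1 to 0.24 at 24 hours. At each time 2 lay above 0 and 5 below. The 2 markers named next are among those that fell and were picked after their values were seen. KLK3, the androgen-regulated gene for prostate-specific antigen, fell by 0.76 ± 0.18 (limma adjusted p = 0.00898) and, at 24 hours, to 0.5 of vehicle (adjusted p = 0.000439), and TMPRSS2, another androgen-regulated gene, fell by 0.79 ± 0.15 (adjusted p = 0.00231) and 0.90 ± 0.15 (adjusted p = 0.000322). Their part in the FASN result was not tested.

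**Figure D5:**
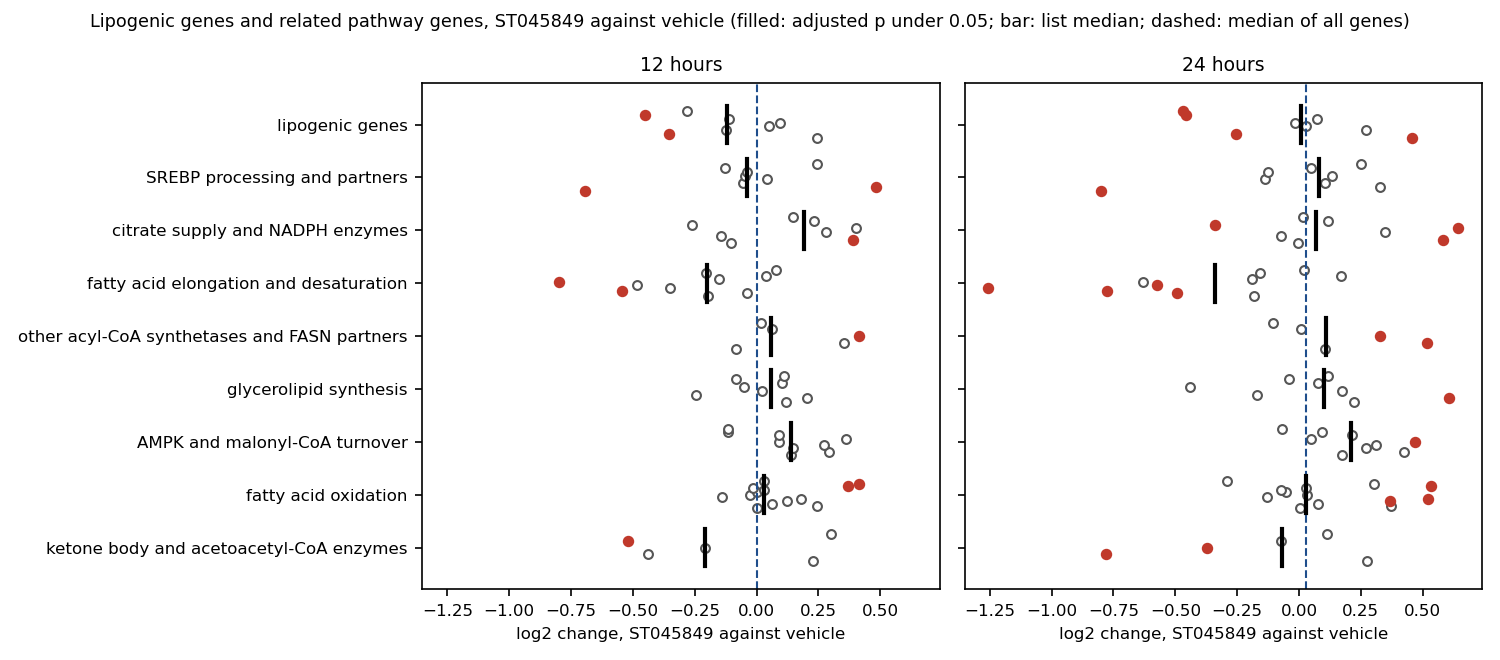
Log2 change with ST045849 of each tested gene of the lipogenic set and of 8 related lists at 12 hours (left) and 24 hours (right); filled red points have an adjusted p under 0.05, black bars are list medians and the dashed line is the median of all genes. The elongation and desaturation list has its median at -0.34 at 24 hours, and its 4 called genes all lie below 0.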

How the data were processed

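Labelled RNA from 24 LNCaP samples was hybridised to 1-colour Illumina arrays. For each array the deposited values are a raw probe intensity, on a linear scale, with its detection p-value, per the file headers. The authors' processed intensity values were deposited too and served as an alternative. The submitters' processing notes name GenomeStudio 2011.1, with no role given.

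Raw intensities were background corrected by normexp from the detection p-values, with an offset of 16, quantile normalized and taken to log2 with limma 3.58.1 in R 4.3.3 (data.table version 1.17.8). Of 47323 probes 17633 were kept (detection p under 0.01 on at least 3 arrays). By the platform's annotation 30113 probes had 1 symbol, 8 had several and 17202 had none. The brightest kept probe stood for each of 10345 genes. Groups came from the titles. A single limma fit of 8 group means gave each contrast, adjusted by Benjamini-Hochberg over all genes. The script was tested on simulated data. Alternatives were the background correction, scaling, the authors' values, detection filters, all probes, replicate or array-set blocks, compared groups alone, array weights and leaving out arrays.

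The genes named by rule are all 10 lipogenic genes, OGT, the 5 genes most correlated with FASN, and up to 4 tested genes of smallest p with ST045849 at 24 hours in each of 8 pathway lists. Genes and lists were chosen with earlier results of these data known. The array sets split where the vehicle arrays lay farthest apart on principal component 1, and time and replicate number carried the split to the other treatments. FADS2, HMGCS1, SCD, SREBF2, KLK3 and TMPRSS2 fall outside this rule and were picked after their values were seen.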

Additional observations from a re-analysis of the deposited data

Results flagged for a closer look

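The response of AACS differed between the 2 treatments by a test of the difference itself. At 24 hours the ST045849 effect was 0.46 ± 0.11 and the siOGT effect -0.18 ± 0.11, a difference of 0.64 ± 0.16 (SE; limma adjusted p = 0.0103). Over all genes 16.1% passed this test, 9.65% of them higher as a share of all genes. All 3 ST045849 arrays lay above vehicle, as for 22.7% of all genes, and the siOGT arrays overlapped scrambled. The mean level at 24 hours was 8.33 with vehicle, 8.49 with scrambled and 8.32 with siOGT. Scrambled minus vehicle was 0.16 ± 0.11 (limma adjusted p = 0.561), and the difference of effects includes this gap between the controls. The difference kept its call when any 1 of the 12 arrays was left out (0.53 to 0.72) and lost it with median scaling (0.28, adjusted p = 0.347).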

How the results depend on the processing

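FASN and SREBF1 at 24 hours were called in 13 of 13 settings, AACS at 24 hours in 12, FASN at 12 hours in 12, ACACA at 12 hours in 11 and ACACA at 24 hours in 8. The count of lipogenic genes called at 12 hours with ST045849, 2 in the report, was 1 with median scaling and 0 when limma was run on the compared groups alone. In those 2 settings the calls over all genes fell from 1139 to 472 and 452. The count whose ST045849 and siOGT effects differed at 24 hours, 1 in the report, was 2 without background correction, with the authors' processed values, with detection required on all 24 arrays and with the compared groups alone, and 3 with median scaling and with array quality weights. Median scaling moved the median of all genes to -0.139 with ST045849 at 24 hours and to -0.247 for the 24 hour difference of effects. It split the ST045849 calls at 24 hours into 362 higher and 1539 lower in place of 1406 and 1110. The calls of the 24 hour difference became 177 higher and 1393 lower in place of 998 and 664. The 3 lipogenic differences called with median scaling were all lower. Same-numbered arrays correlated at -0.07 to 0.274 in their deviations from group means. In no comparison were all 3 above 0.1, and by this rule the numbers were not taken to pair the samples. The correlations were -0.07 to 0.089 between ST045849 and vehicle, 0.051 to 0.274 between siOGT and scrambled, and 0.027 to 0.24 between scrambled and vehicle. Same-numbered arrays of 1 time also share an array set, so the rule does not show them to be unrelated. The main fit holds no term for this. With the replicate block that count of differing effects was 3. Leaving out 1 array gave 0 to 2 called genes with ST045849 at 12 hours, 1 to 3 at 24 hours, and 1 to 2 for the 24 hour difference. It was 0 at 12 hours without vehicle replicate 1 or ST045849 replicate 2, 1 at 24 hours without vehicle replicate 1, and 2 for the difference without scrambled replicate 1. All other counts were 0 to 0. Of 70 changes called in no setting, 84 of 1504 values turned sign, at main sizes up to 0.24. Where a call was lost, the cause was not tested. Dim probes limit ACACB, ACSL4 and ACSL5.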
